A study of Mus musculus with 2 samples.

Results

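NcoA3 peaks that lay close to another NcoA3 peak were examined in E14 mouse embryonic stem cells. A peak is a stretch of the genome where the authors' peak caller found more reads in the NcoA3 precipitate than in its control. A peak was taken as clustered when its summit, its highest point in the authors' list, was within 10000 bp of the summit of at least 1 other peak on the same chromosome. Of the 2017 peaks on the list, 227 (11.3%) met this rule, and they formed 100 clusters. The stretch from 53 to 111 Mb of chromosome 8, where 233 of the list's peaks lie, was left out. Of the 1784 peaks outside it, the clustered ones made up 12.7%, and the other 1557 were isolated. Clusters in which any peak held 50 or more input reads are described apart: there were 8 of these, with 25 peaks, called input-rich below. The other 92 clusters held 202 peaks.

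NcoA3 is a nuclear receptor coactivator. It does not recognise DNA itself but is brought to chromatin by nuclear receptors and other transcription factors, where it recruits enzymes that acetylate and methylate histones and so helps to activate genes. In embryonic stem cells the nuclear receptor named in the study's title is Esrrb, one of the factors that keep the cells undifferentiated. Transcription factors of that network often bind at several neighbouring positions of 1 enhancer, which is why peaks that lie close together are of interest.

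The ChIP library came from E14 (E14Tg2A) cells, an established line kept on gelatin in medium with LIF (leukaemia inhibitory factor), and was precipitated with an antibody against NcoA3. The control came from the same line and is called input in its title, while its antibody field reads IgG. Each group was 1 library, so the differences have no replicate check. Tests compare these 2 libraries and not the conditions, and intervals and p-values cover counting error only. No expression was measured, so the cell type could not be checked against marker genes.

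The ChIP library held 11509916 reads and the input 15125180. Ratios of ChIP to input are scaled to sequencing depth, so that 0.761 ChIP reads per input read counts as a ratio of 1. Intervals are 95% exact intervals (Clopper-Pearson, conditional for ratios). RPM stands for reads per 1e+06 reads of the library. Coordinates are on mm8, count from 1, and are not assigned to genes, because no gene annotation of that build was used.

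Most clusters were pairs. There were 81 clusters of 2 peaks, 13 of 3 peaks, 5 of 4 peaks and 1 of 6 peaks. Outside the left-out stretch, 127 consecutive summits lay within 10 kb of each other, against 46 at 10001 to 20000 bp, 30 at 20001 to 30000 bp and 15 to 27 in each further step of 10 kb up to 100000 bp. Within the clusters 86 of the 127 spacings were at most 5000 bp and 37 at most 2000 bp. The shortest was 668 bp and the median 3313 bp. The few pairs nearest the limit had ratios of 2.32 to 8.12 inside it and 2.23 to 8.12 outside it. The value of 8.12 is the same peak on both sides, at chr1:13069525, so the ranges are not independent. That peak and its neighbour outside the limit belong to different clusters. The pair just inside the limit, 9957 bp apart on chromosome 11, had ratios of 5.26 and 2.32. The pair just outside, 10008 bp apart on chromosome 13, had 2.37 and 3.13, and its first peak belongs to an input-rich cluster.

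The clusters were spread over 20 chromosomes. Chromosome 17 held the most, with 11 clusters that took in 28.6% of its 77 peaks, and chromosome 4 held 10. Chromosomes 8 (outside the left-out stretch) and X held 1 each.

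The strongest pair, by the summed score of the authors' deposited table, spanned chr4:55496218-55499140, with summits 1811 bp apart. As background, this part of chromosome 4 carries Klf4, a transcription factor of the embryonic stem cell network. The gene was named after the values had been seen and from general knowledge, and its distance was not measured. The first peak held 118 ChIP reads (10.3 RPM) and 8 input reads (0.529 RPM), a ratio of 19.4 (interval 9.52 to 45.9). The second held 55 ChIP reads (4.78 RPM) and 12 input reads (0.793 RPM), a ratio of 6.02 (interval 3.19 to 12.4). In bins of 200 bp the ChIP library reached 4.78 RPM beside the first summit and 2.52 RPM beside the second, while no input bin in the plotted window exceeded 0.529 RPM. Both peaks were far above the input. The ratio of the first was 3.22 times that of the second (interval 1.13 to 9.57), a difference that did not pass adjustment (adjusted p = 0.733, Fisher's exact test).

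**Figure D1:**
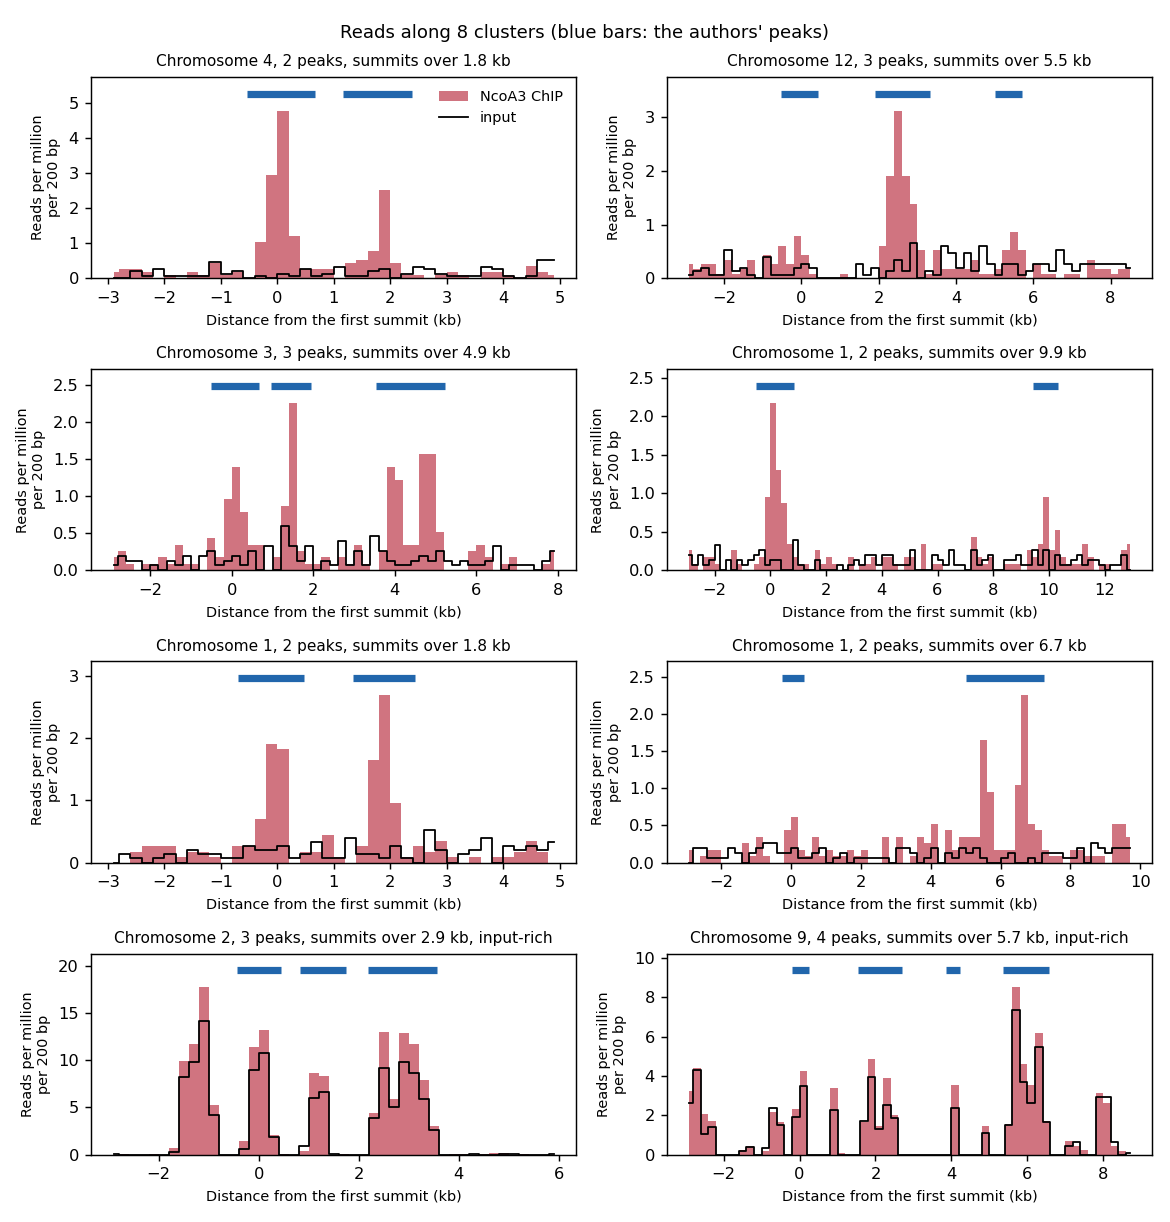
ChIP reads (red) and input reads (black line) (RPM) in bins of 200 bp along 8 clusters, plotted against the distance from the first summit in kb, with the authors' peaks as blue bars. In the upper 6 panels the highest ChIP bin stands at 2.17 to 4.78 RPM over an input of at most 0.661 RPM, while in the lower panels, 2 input-rich clusters, the input follows the ChIP signal from bin to bin.

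In other strong pairs a large peak lay beside a smaller one. At chr1:13069525-13080343 the summits were 9857 bp apart, and the peaks held 68 and 26 ChIP reads over 11 input reads each, for ratios of 8.12 (interval 4.27 to 17.0) and 3.11 (interval 1.48 to 6.96). At chr1:77330242-77337762 the first peak held 14 ChIP and 7 input reads (ratio 2.63, interval 0.993 to 7.69), and the second 93 and 10 (ratio 12.2, interval 6.36 to 26.3). The second was also a broad peak with 2 ChIP maxima of 1.65 and 2.26 RPM per bin, at 5500 and 6700 bp from the first summit of the pair. At chr12:57214109-57216993 the peaks held 50 and 13 ChIP reads over 10 and 5 input reads, for ratios of 6.57 and 3.42. At chr19:23154432-23162964 the smaller peak came first, with 21 ChIP and 6 input reads (ratio 4.60) against 63 and 12 (ratio 6.90). Each weaker peak is on the authors' list by the way the members were chosen. At chr1:77330242 the interval of the weaker peak's ratio reached below 1. In each of these pairs the intervals of both ratios overlapped. Overlap is not a test of a difference. At chr1:77330242 the ratio of the first peak was 0.215 times that of the second (interval 0.0623 to 0.793). That difference did not pass adjustment (adjusted p = 0.733, Fisher's exact test).

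In 3 further pairs both peaks held over 30 ChIP reads. At chr1:36929978-36933117 the peaks held 57 and 66 ChIP reads over 17 and 11 input reads, with ratios of 4.41 (interval 2.53 to 8.08) and 7.88 (interval 4.13 to 16.6). At chr6:83855491-83859977 the counts were 77 over 11 and 48 over 15, with ratios of 9.20 (interval 4.86 to 19.2) and 4.20 (interval 2.31 to 8.08). The pair at chr2:71667234-71669160 was among the closest, with summits 960 bp apart, and its peaks held 32 ChIP reads over 4 and 47 over 9, for ratios of 10.5 (interval 3.73 to 40.9) and 6.86 (interval 3.32 to 15.9). All 6 of these peaks were in the strongest quartile of the authors' scores.

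The remaining 4 of the 12 pairs with the highest summed scores had ratios between 2.89 and 7.88. At chr7:140810544-140814551 the ratios were 7.88 and 5.26, and at chr14:62453958-62456420 they were 4.63 and 3.94. At chr17:70732793-70735099 they were 6.02 and 3.21. At chr2:154114765-154119985 the first peak had 25 ChIP and 5 input reads (ratio 6.57) and the second, a 2656 bp peak, had 99 and 45 (ratio 2.89). That second peak had more ChIP reads but also the most input reads of any peak in the 92 clusters.

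Clusters of 3 peaks held strong and weak members alike. At chr12:87387796-87394035 a central peak of 110 ChIP and 21 input reads (ratio 6.88, interval 4.29 to 11.6) stood between peaks of 21 over 11 (ratio 2.51) and 24 over 10 (ratio 3.15). At chr3:34947594-34953347 the peaks held 49, 42 and 83 ChIP reads over 14, 20 and 22 input reads, for ratios of 4.60 (interval 2.50 to 9.02), 2.76 (interval 1.58 to 4.96) and 4.96 (interval 3.07 to 8.33). The last of these had maxima of 1.39 and 1.56 RPM per bin, 3900 and 4700 bp from the first summit. At chr10:62287930-62292765 the 3 ratios ran from 14.1 (43 over 4 reads, interval 5.13 to 54.2) through 6.08 (37 over 8) to 3.94 (33 over 11), and all 3 intervals overlapped. At chr3:133461695-133472124 they were 6.38, 5.09 and 4.27, on 34, 31 and 39 ChIP reads. The first summit there was 8027 bp from the second, which was 1592 bp from the third.

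Clusters at chr16:22317439-22324915 (ratios 8.32, 3.38 and 3.80), chr9:78154782-78161293 (3.61, 7.36 and 4.38) and chr7:85827584-85843334 (6.57, 4.53 and 3.15) had fewer reads, with 12 to 38 ChIP reads per peak. Their intervals overlapped within each cluster. At chr7:23475853-23494770 4 peaks held 40, 15, 15 and 13 ChIP reads over 16, 8, 5 and 3 input reads, with ratios of 3.28, 2.46, 3.94 and 5.69. Among these the strongest peak by reads did not have the highest ratio, and all 4 intervals overlapped.

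The largest cluster, of 6 peaks, spanned 18006 bp at chr5:80491022-80509027. Its peaks held 75, 68, 40, 26, 32 and 20 ChIP reads over 38, 36, 20, 14, 15 and 6 input reads. The ratios were 2.59, 2.48, 2.63, 2.44, 2.80 and 4.38, so that 5 of the 6 lay between 2.44 and 2.80. Together they came to 2.66 (interval 2.14 to 3.31). Scaled to the libraries' ratio in the 100 kb around each peak, the same 6 ratios were 1.64, 1.56, 1.71, 1.59, 1.86 and 2.89.

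Over the 92 clusters, peaks held a median of 21.5 ChIP reads (range 11 to 118) and 7 input reads (range 0 to 45). Summed, they had 5662 ChIP and 1902 input reads, a ratio of 3.91 (interval 3.71 to 4.12). With 1 read added to each library, the median fold per peak was 3.71. Of the 202 peaks, 88 were at 4-fold or more and 12 at 8-fold or more. Of the 2017 peaks of the list these counts were 960 and 193, and of the 1544 isolated peaks under 50 input reads 771 and 168. The share in clusters was thus not above that of the list at either limit. By cluster, the lowest ratio was 1.97, the median 4.34 and the highest 11.4, and the interval lay above 1 in all 92. The highest of these, 11.4 at chr16:42454068-42463128, rested on 26 ChIP and 3 input reads. Set against the input by an exact two-sided binomial test over the whole list (Benjamini-Hochberg adjustment, limit 0.05), 196 of the 202 peaks were called higher, 0 lower and 6 neither. Of all peaks on the list, 95.3% were called higher, so the share among clustered peaks was near that of any peak, and the peaks had been chosen on the same reads. Scaled to the libraries' ratio in the 100 kb around each peak, 162 of the 202 were called higher, against 74.8% of the list.

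Clustered peaks were compared with the 1544 isolated peaks that held under 50 input reads. The isolated peaks had a ratio of 4.51 (29914 over 8709 reads, interval 4.41 to 4.62). The ratio in clusters was 0.867 times that (interval 0.818 to 0.918; Fisher's exact test on reads, two-sided, p = 1.18e-06). The size of the difference depended on the input limit and on the score. With 100 input reads as the limit it was 0.787 (p = 3.7e-19, Fisher's exact test), and with summits joined within 5000 or 20000 bp it was 0.886 or 0.873. With 30 input reads as the limit, which set 5 more clusters and 17 more peaks apart, it was 0.956 (p = 0.164, Fisher's exact test), and among peaks with scores of 100 or more it was 0.975 (p = 0.633, Fisher's exact test).

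Clustered peaks were the longer ones and had the higher scores. Their median length was 772 bp against 605 bp for isolated peaks, and their median score in the authors' deposited table was 79.4 against 65.7. These medians are of the 202 peaks of the 92 clusters. The shares by quartile and the count among the top 10, given next, include the input-rich clusters as well. Of the peaks in the strongest quartile of scores outside the left-out stretch, 19.7% were clustered. In the quartiles of falling score the share was 13.5%, 6.68% and 10.4%. Among the 10 peaks of highest score, 4 were clustered. A peak of the strongest quartile was present in 55 of the 92 clusters, and in 22 of them every peak was in that quartile. Within the strongest quartile the ratio was 4.69 in clusters and 5.06 in isolated peaks (0.927 times, adjusted p = 0.0678 over 4 quartiles, Fisher's exact test). In the other quartiles it was 0.722, 0.725 and 0.800 times that of isolated peaks, with adjusted p of 6.86e-07, 0.00164 and 0.00377 in the same test. The split by quartile was added after the data had been seen.

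**Figure D2:**
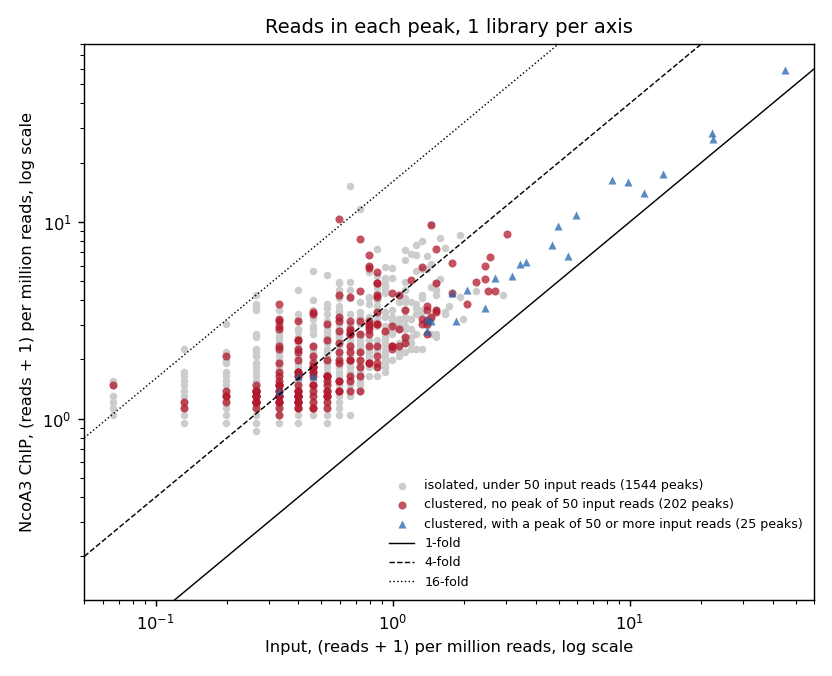
ChIP reads against input reads in each peak, as RPM with 1 read added, both axes on a log scale, for the 202 peaks of 92 clusters (red circles), the 25 peaks of input-rich clusters (blue triangles) and 1544 isolated peaks (grey). The red points lie within the grey cloud around the 4-fold line, and most of the blue points lie between the 1-fold and 4-fold lines.

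Around their summits the clustered peaks had a sharp ChIP maximum on a raised floor. Within 100 bp of the summit the ChIP library had 4.96 RPM per kb in the 202 peaks, against 3.85 in isolated peaks. At 1.5 to 3 kb from the summit it had 0.906 RPM per kb against 0.516, and neighbouring peaks fall in this window by the way the members were chosen. The input near the summit was 0.794 RPM per kb in clustered and 0.559 in isolated peaks. It was thus higher around clustered peaks as well, at the summit and, with 0.626 against 0.484 RPM per kb, farther out.

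**Figure D3:**
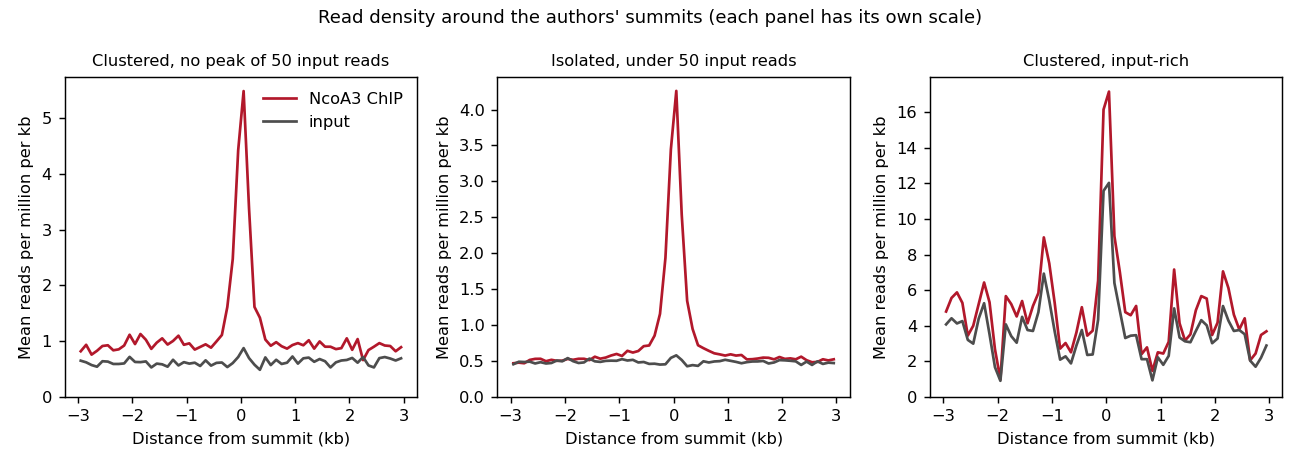
Mean RPM per kb in bins of 100 bp against the distance from the authors' summit, for clustered, isolated and input-rich clustered peaks, each panel on its own scale. The ChIP line (red) peaks at the summit in the first 2 panels, where the input (grey) rises far less. Within 100 bp of the summit the input was 0.794 (clustered) and 0.559 (isolated) RPM per kb, against 0.626 and 0.484 at 1.5 to 3 kb. In the third panel the input peaks with the ChIP line, at 11.8 against 16.7 RPM per kb.

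Peaks of 1 cluster were then tested against each other, to ask whether a cluster holds sites of unequal enrichment. Each of the 127 pairs of neighbouring peaks was compared by Fisher's exact test on ChIP and input reads. After Benjamini-Hochberg adjustment over the 141 such pairs of the list, 0 pairs differed by Fisher's exact test (0% of all pairs, smallest adjusted p = 0.733). At an unadjusted p under 0.05 there were 5 pairs (3.55% of the 141). Among consecutive peaks over 10 kb apart these shares were 0.0611% adjusted and 3.36% unadjusted. The 5 were the pairs at chr4:55496218 (ratios 19.4 and 6.02) and chr1:77330242 (2.63 and 12.2), the first pair of the cluster at chr12:87387796 (2.51 and 6.88), the pair at chr4:140837248 (11.5 and 2.51) and the pair at chr15:11521813. In that last pair the first peak held 16 ChIP and 0 input reads and the second 14 and 7. With the input at the floor of 3 reads, which a count of 0 allows, the first peak had a ratio of 7.01. The last 2 pairs are named because of these values.

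The depth limited this comparison. The smaller peak of a pair had a median of 19 ChIP reads, and in the 109 pairs of the 92 clusters where both peaks held input reads, the interval of the ratio between neighbours had a median width of 16.6-fold. Neighbours had a median difference of 1.53-fold. In 81 pairs they were less than 2-fold apart and in 28 pairs 2-fold or more, up to 4.65-fold. Differences of the typical size could therefore not be detected at this depth. The rank correlation of the folds of neighbours was 0.225 over 110 pairs, against 0.0845 over 1637 pairs of consecutive peaks farther apart. The 110 pairs leave out the input-rich clusters, while the 1637 pairs were drawn without an input limit, so the sets are not matched. Neighbours share the same 2 libraries and the same local coverage.

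The sequence between the peaks of a cluster was taken at least 300 bp from any peak. The distance rule did not use its reads, but the authors' scores are computed against local input. Input reads between neighbouring peaks can therefore have entered the calling of the members. In the 92 clusters this sequence held 2212 ChIP and 2396 input reads over 269836 bp, a ratio of 1.21 (interval 1.14 to 1.29). The flanks, up to 10 kb on each side, had a ratio of 0.972 (interval 0.949 to 0.996). The stretches between peaks were 1.25 times as high in ChIP over input as the flanks (interval 1.17 to 1.33). The flanks reach farther from any peak, so they are not matched to these stretches for distance. Around isolated peaks the ChIP library still had 0.640 RPM per kb at 850 bp before the summit, against 0.516 at 1.5 to 3 kb. ChIP density was 0.712 RPM per kb between peaks and 0.549 in the flanks, while the input stood at 0.587 and 0.565. The difference was thus mainly in the ChIP library. With local scaling, in which each cluster is set against the libraries' ratio in its own 100 kb, the values were 1.11 between peaks (interval 1.04 to 1.17) and 1.01 in the flanks (interval 0.987 to 1.04).

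The ratio between peaks was 1.42 (interval 1.15 to 1.75) for summits up to 3000 bp apart, 1.25 (interval 1.14 to 1.38) at 3001 to 6000 bp and 1.16 (interval 1.07 to 1.25) at 6001 to 10000 bp. These 3 intervals overlapped.

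**Figure D4:**
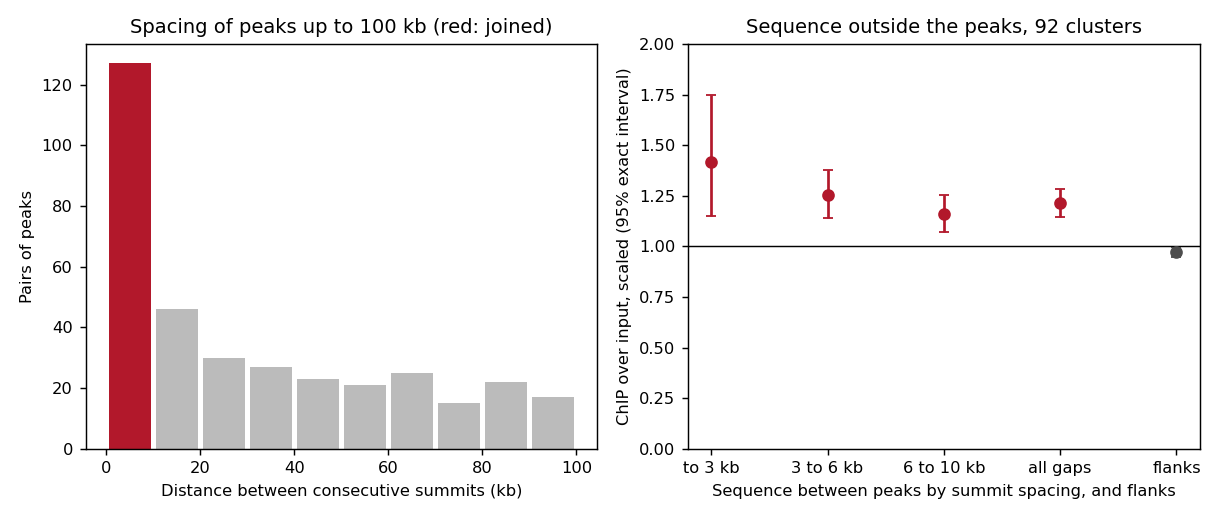
Left, the number of pairs of consecutive summits in each 10 kb step of distance up to 100 kb, with the 127 joined pairs in red. Right, the scaled ratio of ChIP to input outside the peaks of 92 clusters, with 95% exact intervals: the pooled ratio of the stretches between peaks lies above 1 in each class of spacing, and the flanks at 0.972 lie just under it.

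Single clusters were called by an exact two-sided binomial test on the reads between their peaks. Of 74 clusters with sequence and reads to test, 9 were higher in the ChIP library and 4 lower, after Benjamini-Hochberg adjustment over the 93 testable clusters of the list. Over those 93, 15.1% were called higher and 4.3% lower. The lowest p among those called higher was at chr7:85827584-85843334, with 136 ChIP and 86 input reads between its 3 peaks (ratio 2.08, adjusted p = 8.61e-06, exact binomial test). The 6-peak cluster on chromosome 5 (149 over 116, ratio 1.69), the 4-peak cluster at chr7:23475853 (147 over 127, ratio 1.52) and the pair at chr1:77330242 (41 over 27) were also higher. The cluster at chr12:87387796 was lower, with 12 ChIP and 37 input reads between its peaks (ratio 0.426, adjusted p = 0.0486, exact binomial test). Few of these calls held with local scaling: 3 clusters were then higher, each at an adjusted p of 0.0466 in the same exact test, and 0 were lower (4.3% and 0% of the 93). They were chr6:37689178-37697794, which both scalings called, and chr3:88657588-88661917 and chr7:140810544-140814551, which only local scaling called.

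The surroundings of the clusters differed widely in input coverage. In the 100 kb around each of the 92 clusters, with all peaks left out, the input density ran between 0.287 and 2.91 times the autosome median, and its own median was 1.51 times. The ChIP density ran between 0.327 and 2.29 times, around a median of 1.25. The scaled ratio of the surroundings ran from 0.405 to 1.81. It was under 1 around 36 of the 55 clusters that held a peak of the strongest quartile, and around 12 of the other 37. The median input density was 1.61 times the autosome median around the former and 1.24 times around the latter, while the ChIP density was 1.25 and 1.26 times.

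Around the 12 pairs described above the ratio of the surroundings was under 1 in 10, from 0.545 at chr7:140810544 to 0.937 at chr19:23154432, with 0.883 at chr4:55496218. It was 1.07 at chr1:77330242 and 1.14 at chr12:57214109. Of all 13 clusters of 3 or more peaks outside the input-rich ones, it was under 1 around 6, among them chr12:87387796 at 0.655, chr10:62287930 at 0.667 and chr3:34947594 at 0.776. It was over 1 around the other 7. Of these, the 6-peak cluster on chromosome 5 (1.54) and the clusters at chr7:23475853 (1.54) and chr7:85827584 (1.64) were called higher between their peaks before local scaling and not with it. Across the 92 clusters the rank correlation of the highest score with the ratio of the surroundings was -0.336, with their input density 0.307 and with their ChIP density -0.0632. The score itself is computed against local input, and all clusters share the same 2 libraries. Around isolated peaks the median ratio of the surroundings was 0.948 in the strongest quartile and 1.17, 1.26 and 1.16 in the others, against 0.911, 1.22, 1.16 and 1.07 around clustered peaks. What part regional coverage had in the scores was not tested.

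**Figure D5:**
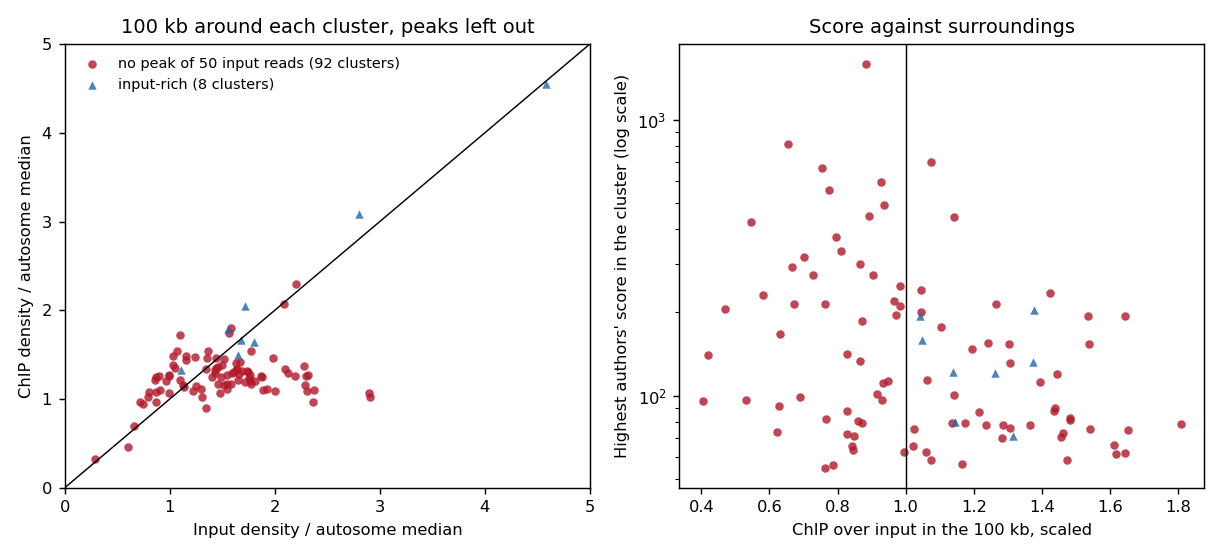
Left, ChIP density against input density in the 100 kb around each cluster, peaks left out, as multiples of the autosome median, with the line of equality. Right, the highest authors' score in the cluster (log scale) against the scaled ratio of the surroundings, for 92 clusters (red) and 8 input-rich clusters (blue): among red points input density runs between 0.287 and 2.91 and ChIP density between 0.327 and 2.29, and 36 of the 55 clusters with a peak of the strongest quartile lie left of 1.

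Clusters themselves lay close together in places. Of the 100, 31 were within 1 Mb of another cluster, in 12 groups, of which 10 were pairs of clusters. The largest group held 7 clusters and 19 peaks over 1.76 Mb at chr4:144674032-146431173, where the authors' list had 29 peaks in all. Of these 7 clusters, 4 were input-rich. Their ratios ran from 1.80 to 2.91, with a pooled ratio of 1.94 (interval 1.76 to 2.14), and no score exceeded 193.65 in the authors' deposited table. The next group held 4 clusters and 9 peaks at chr12:116043524-116274839, with a pooled ratio of 2.59 (interval 2.04 to 3.31). Both pooled ratios lay below the 3.91 of the 92 clusters. A pair of clusters on chromosome 1, at chr1:13056376-13080343, missed being 1 cluster by a gap of 10054 bp, and its 4 peaks had a pooled ratio of 5.38 (interval 3.61 to 8.25).

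The 8 input-rich clusters were chosen for high input, so a lower ratio follows in part from the choice. Their 25 peaks held 3016 ChIP and 2710 input reads, a ratio of 1.46 (interval 1.39 to 1.54). By cluster the ratio ranged from 1.21 to 2.17, with a median of 1.84. The 13 isolated peaks of 50 or more input reads had a pooled ratio of 1.47 (interval 1.37 to 1.58). The 2 sets differ in input: the isolated peaks held 53 to 315 input reads each, and the clustered peaks 4 to 682. By the exact binomial test 21 of the 25 clustered peaks were called higher in ChIP, where 95.3% of the whole list was. With local scaling 13 of the 25 were called higher, against 74.8% of the list. Their surroundings had input densities of 1.11 to 4.58 times the autosome median and a ratio above 1 in all 8.

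The cluster with the most reads was chr2:98464306-98468297, whose 3 peaks held 325, 201 and 677 ChIP reads over 336, 207 and 682 input reads. Their ratios were 1.27, 1.28 and 1.30, and with local scaling they turned below 1, to 0.926, 0.926 and 0.941. The 4 peaks at chr9:3029983-3036757 held 76, 160, 41 and 301 ChIP reads over 82, 172, 36 and 338 input reads. The last and largest had a ratio of 1.17 (interval 0.998 to 1.37), and 0 of the 4 were called. In both clusters the input rose and fell with the ChIP signal from bin to bin.

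On chromosome 4 the peaks of chr4:144703721-144717660 held 187, 183 and 31 ChIP reads over 126, 147 and 20 input reads. The 3 ratios were 1.95, 1.64 and 2.04. The 4 peaks at chr4:145337677-145357568 had ratios of 1.82, 2.23, 2.19 and 1.70, with the first alone holding 123 ChIP and 89 input reads. The clusters at chr4:144674032-144682161 and chr4:146419367-146431173 each joined a peak of 50 or more input reads to smaller ones: 87 over 70 reads with 18 over 6, and 71 over 54 with 18 over 5 and 15 over 4. The smaller peaks there had ratios of 3.94, 4.73 and 4.93, against 1.63 and 1.73 for the large ones. On chromosome 13 the 4 peaks at chr13:12817386-12838394 had ratios of 1.94, 1.68, 1.78 and 2.37, and the pair at chr13:27957546-27968098 had 2.48 and 1.92.

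The authors' tag counts, which admit up to 2 tags per position, exceeded the deposited reads in some of these clusters. In the authors' deposited table the peak at chr2:98466910 has 1306 tags, 1.93 times its 677 deposited ChIP reads, and that at chr9:3035547 has 540 tags, against 301 reads. In the 92 clusters the same quotient had a median of 1.06 and a range of 0.812 to 1.33. In the clusters on chromosomes 2 and 9 each peak had 1.68 or more. Isolated peaks of 50 or more input reads had a median of 1.27 and reached 1.94. For whole libraries the authors counted 12003106 ChIP and 18332357 control tags, against 11509916 and 15125180 deposited reads. The shortfall was thus larger in the control, which is the denominator of every ratio here. What part the tags without a deposited read had in the ratios was not tested.

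The distance between reads on opposite strands differed between the sets of peaks. Read pairs were pooled over each set, so peaks with many reads weigh most, and no single cluster was examined. Pairs of plus-strand and minus-strand 5′ ends inside the input-rich clusters' peaks showed a maximum at 67 bp (ChIP) and 68 bp (input), at 6.89 and 7.38 times the level at 351 to 400 bp. Isolated peaks of 50 or more input reads had nearly the same maxima, at 68 bp (ChIP) and 67 bp (input). In the 92 clusters the maximum lay at 151 bp for ChIP (1.65 times) and 130 bp for input (1.99 times), and in isolated peaks under 50 input reads at 132 bp (1.73 times) and 164 bp (2.06 times). The maxima in the 92 clusters and in these isolated peaks were low and broad, so their positions are approximate.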

How the data were processed

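The authors deposited aligned reads of 35 bp on mm8 (per the submitters' processing notes), used here as whole-number counts, and a peak list. The list was made with MACS 1.4.1 from 1 ChIP library against 1 control at a p-value limit of 1e-05, per the file headers. An aligner was not given in the sources used here. For each peak the deposited list holds a tag count, a score (10 times the negative log10 of p), a fold enrichment (a ratio to local background) and a false discovery rate in percent, per the file headers. In the authors' deposited table that rate is 100% for 226 of the 227 clustered peaks, and for 2014 of the 2017 peaks of the whole list.

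Counting used Python (3.11.15) with numpy (2.4.6), pandas (2.3.3), scipy (1.17.1) and, for adjustment, statsmodels (0.14.6). Each 5′ end was moved inward by 65 bp (ChIP) or 74 bp (input), from the most frequent strand distance, and counted within the authors' peaks. Depth was taken as reads on chromosomes 1 to 19, X and Y. Peaks were tested with exact binomial tests and neighbours with Fisher's exact test, adjusted over all peaks, pairs or clusters of the list, the left-out stretch included. The tests were also run on simulated counts. Simulated unequal neighbours held more input reads and were set farther apart than is typical here. That run therefore does not show what could be detected in these pairs. A count of 0 allows up to 3 reads (0.198 RPM in the input).

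Regions were named by rule: the 12 clusters of 3 or more peaks and the 12 pairs with the highest summed scores, and all input-rich clusters, 3 of which are among the former. The members, the rule and the tests were chosen with earlier results of these data known. Alternatives were other linking distances, score and input limits, scalings, read positions, margins and pseudocounts. No sequence was read, since no mm8 genome was used here.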

Additional observations from a re-analysis of the deposited data

How the results depend on the processing

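With scores of 100 or more there were 50 clustered peaks in 23 clusters. The number of input-rich clusters was 13 and 3 with limits of 30 and 100 input reads, 4 with summits within 5000 bp, 2 with scores of 100 or more, and 4 without the chromosome 4 group (chosen after the data were seen). The pooled ratio of the other clusters was 4.34 and 3.46 with the limits of 30 and 100 input reads and 4.96 with scores of 100 or more. That of input-rich clusters was 1.59 and 1.34 with these limits, 1.35 with scores of 100 or more, 1.32 and 1.56 with summits within 5000 and 20000 bp, 1.17 with local scaling and 1.35 without the chromosome 4 group. Local scaling left 13 of their peaks called. Clustered over isolated peaks moved to 0.956 (limit of 30) and 0.975 (scores of 100 or more), and no longer passed. Between peaks, 3 clusters were called higher and 0 lower with local scaling, and 5 and 1 with a margin of 600 bp. The pooled ratio there was 1.11 with local scaling, and that of the flanks turned from 0.972 to 1.01. A pseudocount of 3 reads gave a median fold of 3.22 and 50 peaks at 4-fold or more. Counting only peaks of 20 or more reads, 967 of 1016 peaks of the whole list were called higher, against 1923 of 2017. A further 43 values, over the other settings, kept their direction and stayed within 1.5 times, their interval or their side of the threshold. Of the single peaks named, the 3 at chr2:98464306-98468297 turned below 1 with local scaling (0.926, 0.926 and 0.941), 2 on chromosome 5 fell to 1.64 and 1.56, and 155 values stayed within their intervals. The cause of these moves was not tested. Depth limits single peaks, at a median of 7 input reads. No paired analysis was possible because each group has 1 library.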
